A study of Mus musculus with 21 samples.

Results

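The Wnt ligands, their receptors, their secreted antagonists and the genes that feed back on the pathway were followed in sorted mesoderm from mouse embryoid bodies. Members were taken by gene symbol: every Wnt, Fzd, Sfrp, Dkk and Rspo gene, Lgr4, Lgr5 and Lgr6, and the target and feedback genes Axin2, Nkd1, Nkd2, Lef1, Tcf7, Sp5, Notum, Znrf3 and Rnf43. Of 55487 counted gene identifiers, 53 were members, namely 19 ligands, 10 Frizzled receptors, 7 R-spondins and Lgr receptors, 8 secreted antagonists and 9 target or feedback genes. Embryoid bodies are aggregates of embryonic stem (ES) cells that form mesoderm in culture, and all were taken at day 4. Total-RNA libraries were made from cells sorted by 2 surface receptors, FLK1 (the product of Kdr) and PDGFRalpha (the product of Pdgfra): DP cells carried both, and SP cells carried FLK1 without PDGFRalpha. The T-GFP;Etv2-tdTomato line carries fluorescent reporters for T and for Etv2, and its DP and SP cells were sorted further into Etv2-tdTomato negative and positive cells, which gave 4 groups. Wildtype A2lox.Cre cells gave DP and SP groups. The iEtv2 line carries a doxycycline-inducible Etv2, was given 2 µg/ml doxycycline at day 2.5 and was sorted as SP. Each of the 7 groups had 3 libraries. Only the iEtv2 group is labelled as treated with doxycycline, so the line, the drug and the induced Etv2 cannot be told apart. The labels name no gate on T-GFP, and nothing says that the replicates came from separate cultures, so p-values measure the spread between these samples, which may be technical.

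Wnt proteins are lipid-modified secreted ligands that bind Frizzled receptors together with Lrp co-receptors. Binding stabilises beta-catenin, which acts in the nucleus with the HMG-box factors Lef1 and Tcf7, while other Wnts, such as Wnt5a and Wnt11, act largely without beta-catenin. The pathway restrains itself: Znrf3 and Rnf43 remove Frizzled from the cell surface, Axin2, Nkd1, Nkd2 and Notum are induced by the signal and dampen it, and Sfrp and Dkk proteins block it outside the cell, whereas R-spondins with their Lgr receptors hold Znrf3 and Rnf43 back. In the early embryo Wnt signalling drives the primitive streak and paraxial mesoderm, and Etv2 is the ETS-family factor needed for the endothelial and blood lineages.

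Total counts ran from 22406153 to 32777143 per library, so 3 counts correspond to 0.0915 to 0.134 CPM (counts per 1e6 counts). The wildtype and iEtv2 tables differed from the reporter tables in what was counted (pseudogenes took 0.549% to 0.636% of counts against 12.2% to 14.4%), so the sets were normalised and fitted apart and levels are compared within a set only. Pdgfra and Etv2 followed the labels of the sorts, but Pdgfra also differed between groups of the same gate. Pdgfra averaged 253 ± 34.9 CPM (SD, n = 3) in DP Etv2-negative and 51.7 ± 9.22 CPM in SP Etv2-negative cells. It averaged 318 ± 67.4 and 40.0 ± 7.75 CPM in wildtype DP and SP cells. Within the DP gate Pdgfra averaged 150 ± 22.6 CPM in Etv2-positive cells, lower than in Etv2-negative cells. The log2 change was -0.76 ± 0.19 (adjusted p = 0.00868, edgeR's quasi-likelihood test). Within the SP gate it averaged 6.74 ± 3.55 CPM in iEtv2 cells, lower than in wildtype cells (-2.57 ± 0.32, adjusted p = 6.35e-05, same test). The reporter difference in SP cells was -0.47 ± 0.20 (adjusted p = 0.0999, same test). Etv2 averaged 20.2 ± 2.61 and 58.4 ± 10.3 CPM in reporter-negative and reporter-positive DP cells and 26.6 ± 1.04 and 89.0 ± 17.0 CPM in the SP pair. It averaged 93.6 ± 22.4 and 239 ± 10.2 CPM in wildtype and iEtv2 SP cells. Kdr was high in all 7 groups, with means from 437 ± 96.3 to 892 ± 63.3 CPM. T averaged 104 ± 29.3, 37.8 ± 12.5, 62.4 ± 21.0 and 53.4 ± 12 CPM in the 4 reporter groups, in the order DP negative, DP positive, SP negative and SP positive. Ribosomal RNA took 1.40% and 1.28% of counts in SP Etv2-negative replicate 2 and SP Etv2-positive replicate 3, against at most 0.432% in the other reporter libraries.

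More Wnt pathway genes were lower than higher in Etv2-positive DP cells and, most widely, in cells with induced Etv2. More were also lower than higher in SP than in DP among Etv2-negative and wildtype cells. Among Etv2-negative cells that lean was slight without replicate 3 of either group. In SP cells the share called with the reporter was near that of all genes when replicate numbers were ignored. With the number as a block it was above that share. Without a block, the lean to lower in SP cells was slight when both libraries of high ribosomal RNA share were left out. A gene is called changed at a Benjamini-Hochberg adjusted p below 0.05 in edgeR's quasi-likelihood test over all genes, and changes are log2 values with their standard error. In DP cells, 23 of the 43 members tested differed with the Etv2 reporter, 7 higher and 16 lower in reporter-positive cells. Of all genes tested, 30.7% were called there, 16% higher and 14.7% lower. In SP cells it was 12 of 43 (27.9%), 4 higher and 8 lower, against 25.5% of all genes (13.1% higher, 12.4% lower). Without both libraries of high ribosomal RNA share it was 7, 3 higher and 4 lower. Calls are those of the fit without a replicate block unless another fit is named. The replicate numbers pair the samples in these 2 comparisons, and with the number as a block 19 members were called in SP cells, 5 higher and 14 lower. That is a larger share than for all genes, of which 5445 of 17690 were called with the block (2764 higher, 2681 lower) and 4504 without it. Between the gates, SP differed from DP in 16 of 43 members among reporter-negative cells, 6 higher and 10 lower, against 10.9% of all genes (6.1% higher, 4.84% lower). Without replicate 3 of DP Etv2-negative 8 were higher and 9 lower, and without replicate 3 of SP Etv2-negative 5 and 6. With any other library of these groups left out, the lean to lower was wider. Among reporter-positive cells SP differed from DP in 7 of 43 members, 4 higher and 3 lower, against 13.9% of all genes (6.95% higher, 6.94% lower). The last count was 15 with the replicate block, 5 higher and 10 lower, and 17 with no filter on low counts, 5 higher and 12 lower. All genes called rose from 2456 to 3370 with the block (1641 higher, 1729 lower) and to 3128 with no filter (1420 higher, 1708 lower). In wildtype cells, 16 of 44 members differed between the gates, 5 higher and 11 lower in SP, against 15.8% of all genes (9.08% higher, 6.76% lower). Induced Etv2 went with 31 of 44 called members, 8 higher and 23 lower than in wildtype SP cells. There 50.8% of all genes were called, 26.4% higher and 24.4% lower. The median change of the members tested was -0.16, -0.27, -0.05, -0.22, -0.08 and -0.69 in these 6 comparisons in the order given, and that of all genes tested lay between -0.01 and 0.00. Members with few counts did not enter the fit, so these medians do not describe all 53. The 4 comparisons within the reporter line share groups in pairs, and the wildtype gate and iEtv2 comparisons share the wildtype SP libraries. In bulk libraries fewer cells of a type and less RNA per cell cannot be told apart.

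**Figure D1:**
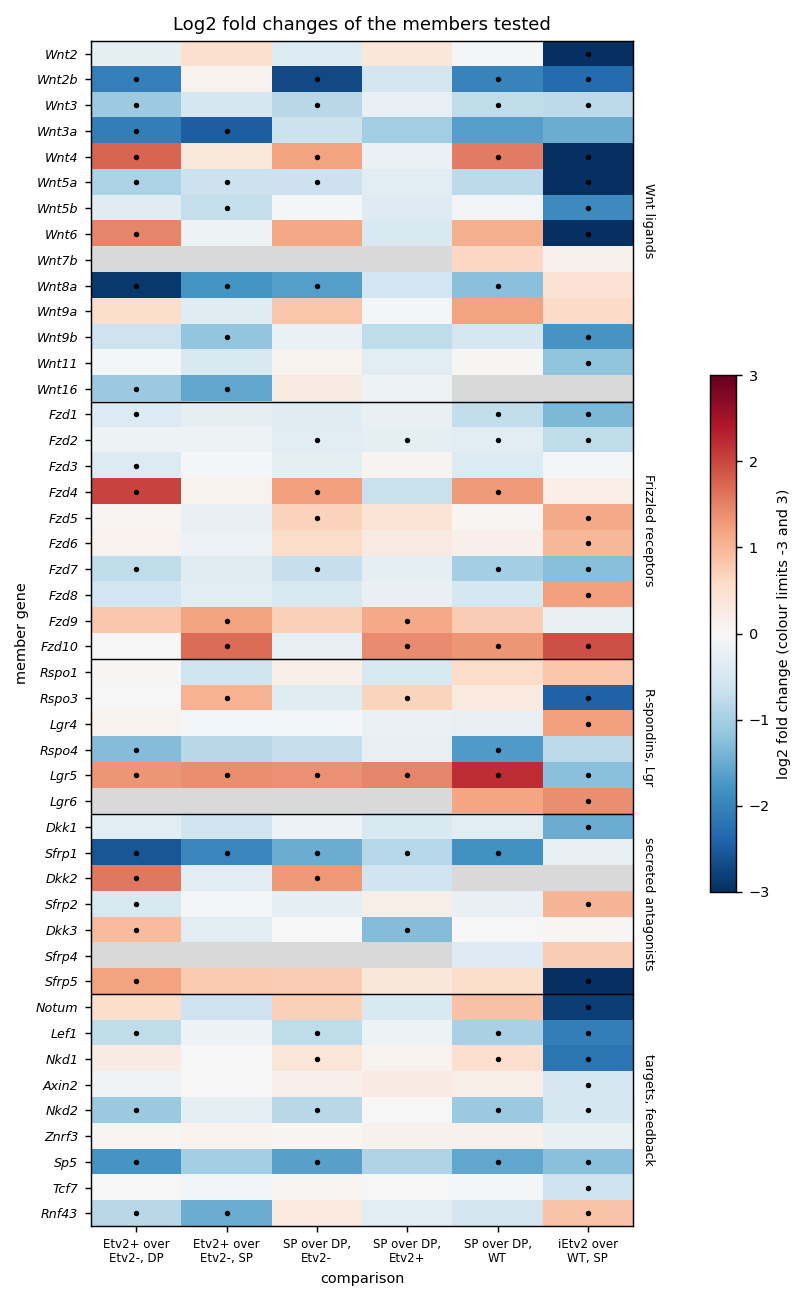
Log2 change of each member tested (rows, by role) in the 6 pairwise comparisons (columns), with colours limited at 3 in either direction, a dot where a member was called at an adjusted p below 0.05, and grey where it was not tested. The iEtv2 column holds 23 members called lower and 8 called higher, and the gate column of Etv2-positive cells holds 7 calls. Among all genes, 50.8% and 13.9% were called in these comparisons.

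Markers of other cell types moved in the same comparisons, and their part in the results below was not tested. The summed level of 14 paraxial mesoderm markers was 225 to 292 CPM over the DP Etv2-negative libraries, 25.1 to 44.6 in DP Etv2-positive cells. It was 51.0 to 81.2 in SP Etv2-negative and 15.6 to 19.5 in SP Etv2-positive cells. It was 305 to 349 CPM in wildtype DP, 50.6 to 75.4 in wildtype SP and 37.1 to 46.4 in iEtv2 cells. Meox2 had no count in DP Etv2-negative, DP Etv2-positive or iEtv2 cells. The paraxial sum was thus highest in the DP Etv2-negative and wildtype DP groups, as were the pluripotency sum given below and the summed level of the Wnt ligands. The pluripotency sum was largely Tdgf1 there, at means of 493 and 1032 CPM. In SP against DP, 3 of the 14 pluripotency markers were lower and 1 higher among Etv2-negative cells, and 5 and 1 in wildtype cells. The 14 endothelial markers summed to 43.5 to 51.8, 63.8 to 92.6, 59.3 to 90.1 and 173 to 328 CPM in the 4 reporter groups in that order. They summed to 67.1 to 94.4, 250 to 336 and 2319.5 to 2945 CPM in wildtype DP, wildtype SP and iEtv2 cells. The 14 blood markers summed to 27.8 to 32.7, 73.1 to 80.8, 70.7 to 96.4 and 303 to 515 CPM in the reporter groups. In the other set they summed to 60.0 to 82.4, 434 to 528 and 719 to 769 CPM. Hba-x had no count in DP Etv2-negative, DP Etv2-positive, SP Etv2-negative or wildtype DP cells, and Hbb-y none in either reporter DP group. Of 12 cardiac markers, 7 were higher and 2 lower with the reporter in DP cells, where they summed to 988 to 1210.2 CPM in negative and 1212 to 1324 CPM in positive cells. Induced Etv2 went with a fall in 11 of the 12, whose sum was 893 to 977 CPM in wildtype SP and 58.3 to 80.3 CPM in iEtv2 cells. Pluripotency markers summed to 715 to 1084 CPM in DP Etv2-negative and 307 to 476 CPM in DP Etv2-positive cells. In SP cells they summed to 407 to 617 CPM in Etv2-negative and 310 to 394 CPM in Etv2-positive cells. They summed to 1304 to 1632, 666 to 899 and 975 to 1044 CPM in wildtype DP, wildtype SP and iEtv2 cells, with 11 of 14 called higher with induction. Of 10 neuroectoderm markers, 7 were tested with induction, and 5 were higher and 1 lower, with sums of 112 to 149 CPM in wildtype SP and 198 to 232 CPM in iEtv2 cells. Among all genes, 26.4% were called higher and 24.4% lower with induction, and 30.7% were called with the reporter in DP cells.

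Scaled to exon length, Fzd7 led in every group except SP Etv2-positive and iEtv2 cells. Fzd7 (ENSMUSG00000041075, chr1:59482424-59486955, plus strand, mm10) was the highest member in DP Etv2-negative cells at 90.6 CPM per kb, ahead of Tcf7 at 53.5, Sp5 at 35.3 and Wnt3 at 31.4 CPM per kb. In SP Etv2-positive cells Tcf7 led at 52.9 CPM per kb, followed by Fzd7 at 43.7. In iEtv2 cells the order was another: Fzd10 stood first at 71.0 CPM per kb, with Tcf7 at 37.2, Lgr4 at 32.9 and Fzd7 at 24.3. At the other end, 12 members stayed below 1 CPM in all 21 libraries: Wnt1, Wnt7a, Wnt7b, Wnt8b, Wnt10a, Wnt10b, Wnt16, Dkk2, Dkk4, Lgr6, Rspo2 and Sfrp4. Wnt1, which patterns the midbrain, had no count in any library. In all, 41 members were called in at least 1 comparison and 12 in none, and of the latter Rspo1, Wnt9a and Znrf3 reached 1 CPM in a library. Wnt9a was called between the wildtype gates with the replicate block (1.24, adjusted p = 0.0446), and also with no filter on low counts (adjusted p = 0.0371) and in a fit of the compared groups alone (adjusted p = 0.0450).

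The summed level of the 19 ligands differed between groups. Wnt5a (162 to 195 CPM) and Wnt3 (81.9 to 104 CPM) made up most of it in DP Etv2-negative cells. The sum thus says little of the other ligands, some of which went the other way, as given below. The sum was 314 to 386 CPM over the DP Etv2-negative libraries and 156 to 233 in DP Etv2-positive cells. It was 193 to 263 in SP Etv2-negative and 126 to 183 in SP Etv2-positive cells. In the other set it was 395 to 503 CPM in wildtype DP, 245 to 324 in wildtype SP and 59.2 to 95.8 CPM in iEtv2 cells. The DP Etv2-negative and wildtype DP libraries did not overlap with any other group of their set, and the iEtv2 libraries lay below all wildtype libraries.

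Among the ligands in the reporter line, 2 were higher and 6 lower of 13 tested with the Etv2 reporter in DP cells, and 6 were lower in SP cells. The shares of all genes called were 30.7% in DP and 25.5% in SP cells. Values are given in replicate order. Wnt3 (ENSMUSG00000000125, chr11:103774150-103817957, plus strand, mm10), the ligand needed to form the primitive streak, was at 103, 104 and 81.9 CPM across DP Etv2-negative and 48.2, 54.9 and 32.5 across DP Etv2-positive libraries. SP cells had 54.3, 61.4 and 45.8 CPM across SP Etv2-negative and 41.3, 43.5 and 29.3 across SP Etv2-positive libraries. The 3 DP Etv2-negative libraries were above all others, and Wnt3 was 2.14-fold lower in DP Etv2-positive than in DP Etv2-negative cells (-1.10 ± 0.19, adjusted p = 0.000728) and 1.79-fold lower in SP than in DP among reporter-negative cells (-0.84 ± 0.18, adjusted p = 0.0119). The second call was lost without replicate 2 of DP Etv2-negative or replicate 3 of SP Etv2-negative (adjusted p = 0.0555 and 0.0533). In SP cells the reporter difference of Wnt3 was -0.50 ± 0.19, adjusted p = 0.0654, not a call. It was called with the replicate block (-0.51, adjusted p = 0.000322), and also with DESeq2 (adjusted p = 0.0302), with no filter on low counts (adjusted p = 7.67e-09), in a fit of the compared groups alone (adjusted p = 0.0356) and with upper-quartile scaling (adjusted p just below 0.05). Wnt8a, another ligand of the streak, was at 3.8, 4.28 and 3.84 CPM across DP Etv2-negative and 0.404, 0.674 and 0.527 across DP Etv2-positive libraries. In the SP pair it was at 1.72, 1.30 and 0.750 CPM across SP Etv2-negative and 0.369, 0.223 and 0.480 across SP Etv2-positive libraries. It was highest in DP Etv2-negative cells, with no overlap between the groups of either pair, and was 7.39-fold lower with the reporter in DP (-2.89 ± 0.29, adjusted p = 1.58e-05) and 3.46-fold lower in SP cells (-1.79 ± 0.34, adjusted p = 0.00257), at low levels throughout.

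Wnt2b, a paralog of Wnt2, was at 32.1, 30.0 and 15.3 CPM across DP Etv2-negative and 6.51, 8.80 and 3.44 across DP Etv2-positive libraries. Its SP levels were 4.20, 4.81 and 2.73 CPM across SP Etv2-negative and 3.94, 5.71 and 3.05 across SP Etv2-positive libraries. The DP Etv2-negative libraries stood apart, and Wnt2b was 4.15-fold lower in DP Etv2-positive (-2.05 ± 0.34, adjusted p = 0.000625) and 6.57-fold lower in SP Etv2-negative than in DP Etv2-negative cells (-2.72 ± 0.36, adjusted p = 0.000646). Wnt4 moved the other way. It was at 4.23, 4.22 and 5.59 CPM across DP Etv2-negative and 18.8, 14.7 and 13.4 across DP Etv2-positive libraries. The SP values were 12.9, 11.2 and 8.49 CPM across SP Etv2-negative and 17.1, 14.8 and 8.84 across SP Etv2-positive libraries. It was lowest in the DP Etv2-negative libraries, and was 3.33-fold higher with the reporter in DP cells (1.73 ± 0.24, adjusted p = 0.000163) and 2.32-fold higher in SP than in DP among reporter-negative cells (1.21 ± 0.24, adjusted p = 0.00700). Wnt6 was at 0.901, 0.874 and 0.707 CPM across DP Etv2-negative and 3.16, 2.21 and 1.52 across DP Etv2-positive libraries and was 2.75-fold higher with the reporter there (1.46 ± 0.36, adjusted p = 0.00787). Wnt9b, which lies 24329 bp from Wnt3 on the opposite strand, was at 3.44, 3.67 and 5.01 CPM across SP Etv2-negative and 2.14, 2.00 and 1.23 across SP Etv2-positive libraries and was 2.26-fold lower with the reporter (-1.18 ± 0.25, adjusted p = 0.00468). In DP cells the Wnt9b difference was -0.62 ± 0.23, adjusted p = 0.0586, and was called with the replicate block (-0.63, adjusted p = 0.0396), and also with DESeq2 (adjusted p = 0.0477), with no filter on low counts (adjusted p = 0.00558), with upper-quartile scaling (adjusted p = 0.0489), without replicate 2 of DP Etv2-positive (adjusted p = 0.0118) and without both libraries of high ribosomal RNA share (adjusted p = 0.0470).

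Wnt5a and Wnt5b changed by less than 2-fold in the reporter line. Wnt5a averaged 177 ± 16.7 and 91.4 ± 18.8 CPM (SD, n = 3) in DP Etv2-negative and DP Etv2-positive cells (-0.96 ± 0.17, adjusted p = 0.00105) and 114 ± 20.4 and 73.5 ± 15.2 CPM in the SP pair (-0.63 ± 0.17, adjusted p = 0.0168). The SP call was lost without replicate 2 of SP Etv2-negative or replicate 3 of SP Etv2-positive (adjusted p = 0.0699 and 0.0624), and without both libraries of high ribosomal RNA share (adjusted p = 0.179). Between the gates, Wnt5a differed by -0.64 ± 0.17, adjusted p = 0.0310 in reporter-negative cells. That call was lost without replicate 1 or 2 of DP Etv2-negative or replicate 1 or 3 of SP Etv2-negative (adjusted p = 0.0773, 0.123, 0.0876 and 0.118). Wnt5b averaged 27.8 ± 4.52 and 17.1 ± 4.42 CPM in SP Etv2-negative and SP Etv2-positive cells (-0.71 ± 0.22, adjusted p = 0.0327), and its call was lost without replicate 1 or 2 of SP Etv2-negative or replicate 3 of SP Etv2-positive (adjusted p = 0.0792, 0.102 and 0.117), and without both libraries of high ribosomal RNA share (adjusted p = 0.264). Wnt5b in DP cells was -0.37 ± 0.22, adjusted p = 0.233, and was called with the replicate block (-0.39, adjusted p = 0.0105), and also with no filter on low counts (adjusted p = 0.00134). Wnt2 in SP cells was 0.48 ± 0.21, adjusted p = 0.105, and was called with the replicate block (0.48, adjusted p = 0.0140), and also with no filter on low counts (adjusted p = 0.00979) and without replicate 1 of SP Etv2-positive (adjusted p = 0.0376). The remaining called ligands were near the detection limit. Wnt3a averaged 0.556 ± 0.248 and 0.134 ± 0.0893 CPM in the DP pair and 0.352 ± 0.128 and 0.0617 ± 0.0566 CPM in the SP pair, and was called lower with the reporter in both (-2.07 ± 0.60, adjusted p = 0.0185 and -2.47 ± 0.76, adjusted p = 0.0303). Its DP call was lost without replicate 1 or 2 of DP Etv2-negative or replicate 3 of DP Etv2-positive (adjusted p = 0.0610, 0.0719 and 0.0744). Its SP call was lost without replicate 1 or 2 of SP Etv2-negative or replicate 1 or 3 of SP Etv2-positive (adjusted p = 0.0835, 0.0816, 0.0691 and 0.0987), and without both libraries of high ribosomal RNA share (adjusted p = 0.194). Wnt16 averaged 0.377 ± 0.0919 and 0.171 ± 0.0534 CPM in the DP pair and 0.464 ± 0.109 and 0.155 ± 0.0476 CPM in the SP pair. Its DP call (-1.12 ± 0.37, adjusted p = 0.0375) was lost without replicate 2 or 3 of DP Etv2-negative or replicate 1 or 2 of DP Etv2-positive (adjusted p = 0.134, 0.0894, 0.0740 and 0.117), and with DESeq2 (adjusted p = 0.172), and with no filter on low counts (adjusted p = 0.129), and its SP call (-1.55 ± 0.37, adjusted p = 0.00938) without both libraries of high ribosomal RNA share (adjusted p = 0.0536). No ligand of the 13 tested was called between DP and SP among Etv2-positive cells, where 13.9% of all genes were called. There 1 ligand had an unadjusted p below 0.05. With the replicate block edgeR called Wnt2b (-0.53, adjusted p = 0.0268), Wnt3 (-0.24, adjusted p = 0.0450), Wnt5a (-0.31, adjusted p = 0.0206) and Wnt5b (-0.38, adjusted p = 0.0271) lower in SP. With no filter on low counts it called these 4 and Wnt9b, and DESeq2 called Wnt9b (adjusted p = 0.0335).

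In the wildtype line, 4 of 13 ligands tested differed between the gates and 9 of 13 were lower in iEtv2 than in wildtype SP cells, with none called higher. For all genes the shares called were 15.8% between the gates and 50.8% with induction. Wnt2 was the ligand with the largest fall. It was at 10.7, 11.5 and 11.5 CPM across wildtype DP and 10.8, 10.2 and 12 across wildtype SP libraries. The iEtv2 SP libraries had 0.345, 0.839 and 0.778 CPM. It was 16.6-fold lower in iEtv2 cells (-4.05 ± 0.22, adjusted p = 2.50e-07). Wnt5a (ENSMUSG00000021994, chr14:28504750-28527448, plus strand, mm10), a ligand for the Ror2 receptor, was at 189, 254 and 246 CPM across wildtype DP and 115, 154 and 134 across wildtype SP libraries. In iEtv2 SP cells it was at 3.37, 23.3 and 9.17 CPM. The iEtv2 libraries spread widely but all lay below the wildtype ones, and Wnt5a was 11.2-fold lower there (-3.49 ± 0.47, adjusted p = 0.000118), and the difference between the wildtype gates was -0.78 ± 0.41, adjusted p = 0.251, not a call. Its wildtype DP and SP libraries did not overlap, and it was called with no filter on low counts (adjusted p = 1.10e-15) and in a fit of the compared groups alone (adjusted p = 0.00586). Wnt5b was at 24.2, 31.9 and 37.6 CPM across wildtype SP and 6.63, 10.3 and 8.09 across iEtv2 SP libraries, 3.74-fold lower (-1.90 ± 0.18, adjusted p = 9.28e-06).

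Wnt4 was higher in SP than in DP wildtype cells and lowest after induction. It was at 6.63, 8.42 and 5.01 CPM across wildtype DP and 16.1, 20.9 and 22.1 across wildtype SP libraries. The iEtv2 SP libraries had 2.72, 1.87 and 1.69 CPM. It was 2.94-fold higher in wildtype SP than DP (1.56 ± 0.21, adjusted p = 0.000713) and 9.43-fold lower in iEtv2 than in wildtype SP cells (-3.24 ± 0.23, adjusted p = 1.50e-06). Wnt2b was at 37.3, 47.5 and 50.7 CPM across wildtype DP and 7.61, 14.5 and 11.8 across wildtype SP libraries. In iEtv2 SP cells it was at 2.07, 1.94 and 2.81 CPM. This was a step down at each comparison (-2.00 ± 0.21, adjusted p = 0.000160 between the gates and -2.30 ± 0.25, adjusted p = 2.35e-05 with induction). Wnt3 averaged 121 ± 15.9 and 72.0 ± 11.8 CPM in wildtype DP and SP and 41.7 ± 5.70 CPM in iEtv2 cells (-0.75 ± 0.14, adjusted p = 0.00435 and -0.79 ± 0.14, adjusted p = 0.000833), so its groups were separate but within 2-fold of their neighbours. Wnt6 was at 2.24, 4.30 and 3.57 CPM across wildtype SP and 0.460, 0.572 and 0.237 across iEtv2 SP libraries and Wnt9b at 2.36, 3.65 and 2.93 CPM across wildtype SP and 0.499, 1.14 and 0.947 across iEtv2 SP libraries, with changes of -3.0 ± 0.43, adjusted p = 0.000175 and -1.78 ± 0.29, adjusted p = 0.000385. Wnt11, a ligand of heart and gut development, was at 3.69, 5.14 and 4.84 CPM across wildtype SP and 1.96, 2.44 and 1.52 across iEtv2 SP libraries (-1.21 ± 0.21, adjusted p = 0.000607). Wnt8a was at 3.96, 5.77 and 3.38 CPM across wildtype DP and 1.61, 2.62 and 1.23 across wildtype SP libraries. It was called lower in SP (-1.25 ± 0.35, adjusted p = 0.0331), a call lost without replicate 2 of wildtype DP or replicate 1 or 3 of wildtype SP (adjusted p = 0.111, 0.110 and 0.111), and was not called with induction.

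**Figure D2:**
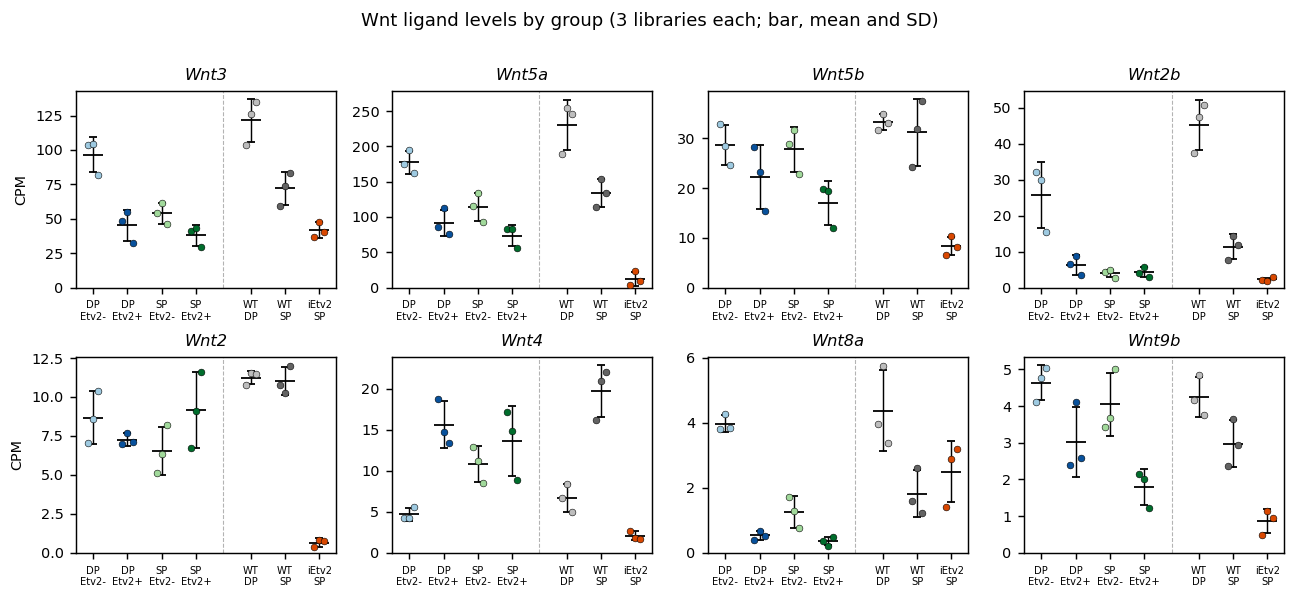
Level of 8 Wnt ligands in CPM (vertical axes, linear from 0) in each of the 21 libraries, by group, with points for libraries and bars for the mean and SD of 3, and a dashed line between the 2 sets that were counted apart. Wnt3 is highest in the DP Etv2-negative and wildtype DP groups, and Wnt2, Wnt4 and Wnt5a are near the bottom of their axes in the iEtv2 libraries.

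Of the Frizzled receptors, all 10 were tested in both sets. With the reporter, 1 was higher and 3 lower in DP cells, and 2 were higher in SP cells. These are 40% and 20% of the 10, against 30.7% and 25.5% of all genes called. Fzd10, a receptor expressed around the primitive streak, was at 18.8, 22.7 and 22.6 CPM across DP Etv2-negative and 17.1, 21.1 and 26.4 across DP Etv2-positive libraries. SP cells had 15.1, 20.2 and 18.7 CPM across SP Etv2-negative and 44.9, 49.8 and 79.4 across SP Etv2-positive libraries. Only the SP Etv2-positive libraries stood apart. Fzd10 was 3.22-fold higher with the reporter in SP cells (1.69 ± 0.21, adjusted p = 0.000149) and 2.69-fold higher in SP than in DP among Etv2-positive cells (1.43 ± 0.20, adjusted p = 0.00111), with no call in DP cells (0.01 ± 0.21, adjusted p = 0.971). Fzd4, which also serves as the receptor for Norrin in retinal vessels, was at 9.56, 11.2 and 29.5 CPM across DP Etv2-negative and 51.2, 59.3 and 93.7 across DP Etv2-positive libraries. In the SP pair it was at 40.5, 30.3 and 48.1 CPM across SP Etv2-negative and 47.4, 37.5 and 43.3 across SP Etv2-positive libraries. It was lowest in DP Etv2-negative cells, 4.06-fold higher in DP Etv2-positive (2.02 ± 0.35, adjusted p = 0.000875) and 2.36-fold higher in SP Etv2-negative cells (1.24 ± 0.35, adjusted p = 0.0387). The second call was lost without replicate 1 or 2 of DP Etv2-negative or replicate 1 or 3 of SP Etv2-negative (adjusted p = 0.158, 0.161, 0.0989 and 0.126), and with a fit of the compared groups alone (adjusted p = 0.0630). Fzd9 was at 0.157, 0.573 and 0.303 CPM across DP Etv2-negative and 0.478, 0.674 and 0.713 across DP Etv2-positive libraries. Its SP levels were 0.717, 0.358 and 0.716 CPM across SP Etv2-negative and 1.25, 1.52 and 1.37 across SP Etv2-positive libraries. It was higher in SP Etv2-positive cells than in SP Etv2-negative (1.21 ± 0.33, adjusted p = 0.0173) and DP Etv2-positive cells (1.14 ± 0.33, adjusted p = 0.0369). The first of these calls was lost without replicate 2 of SP Etv2-negative or replicate 2 of SP Etv2-positive (adjusted p = 0.0705 and 0.0578), and without both libraries of high ribosomal RNA share (adjusted p = 0.117). The second was lost without replicate 1 or 2 or 3 of DP Etv2-positive or replicate 1 or 2 or 3 of SP Etv2-positive (adjusted p = 0.114, 0.0652, 0.0607, 0.0720, 0.103 and 0.0837), and without both libraries of high ribosomal RNA share (adjusted p = 0.0729).

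Fzd7, a receptor of broad use in early embryos, averaged 411 ± 62.7 and 244 ± 55.8 CPM in the DP pair and 256 ± 28.0 and 198 ± 39.3 CPM in the SP pair. It was lower with the reporter in DP cells (-0.75 ± 0.18, adjusted p = 0.00581). In SP cells it was called with the replicate block (-0.39, adjusted p = 0.00149), and also with no filter on low counts (adjusted p = 1.30e-06), against -0.37 ± 0.18, adjusted p = 0.140 otherwise. It was also lower in SP than in DP among reporter-negative cells (-0.68 ± 0.18, adjusted p = 0.0253). This call ended without replicate 1 or 2 of DP Etv2-negative or replicate 1 or 3 of SP Etv2-negative (adjusted p = 0.0976, 0.0934, 0.0617 and 0.0969). Fzd1 and Fzd3 were lower with the reporter in DP cells, Fzd1 from 29.7 ± 3.25 to 22.3 ± 3.29 CPM (-0.42 ± 0.11, adjusted p = 0.0141) and Fzd3 from 50.5 ± 2.30 to 38.2 ± 7.20 CPM (-0.40 ± 0.11, adjusted p = 0.0177). The Fzd1 call was lost without replicate 2 of DP Etv2-negative or replicate 1 or 3 of DP Etv2-positive (adjusted p = 0.0731, 0.0557 and 0.0553), and the Fzd3 call without replicate 1 or 2 of DP Etv2-negative (adjusted p = 0.0596 and 0.0547), and with a fit of the compared groups alone (adjusted p = 0.0538). The reporter difference of Fzd2 in DP cells was called with the replicate block (-0.16, adjusted p = 0.0428). That of Fzd8 in DP cells was called with the replicate block (-0.56, adjusted p = 0.00808), and also with no filter on low counts (adjusted p = 0.0408), and that of Fzd1 in SP cells with the replicate block (-0.27, adjusted p = 0.0170), and also with no filter on low counts (adjusted p = 0.0409). Fzd2 differed little between the gates, by -0.31 ± 0.09, adjusted p = 0.0465 in reporter-negative and -0.30 ± 0.09, adjusted p = 0.0449 in reporter-positive cells. Its first call was lost without replicate 1 or 2 or 3 of DP Etv2-negative or replicate 1 or 2 of SP Etv2-negative (adjusted p = 0.0586, 0.104, 0.147, 0.197 and 0.116), and with a filter of 1 CPM in 3 libraries (adjusted p = 0.0532), and with a fit of the compared groups alone (adjusted p = 0.0654), and without both libraries of high ribosomal RNA share (adjusted p = 0.122). Its second was lost without replicate 2 or 3 of DP Etv2-positive or replicate 1 or 2 or 3 of SP Etv2-positive (adjusted p = 0.0859, 0.146, 0.159, 0.0910 and 0.0805), and with a fit of the compared groups alone (adjusted p = 0.0574), and without both libraries of high ribosomal RNA share (adjusted p = 0.104). Fzd5 was higher in SP than in DP among reporter-negative cells (4.10 ± 0.704 and 6.65 ± 0.796 CPM in DP and SP, 0.70 ± 0.15, adjusted p = 0.0106). The call did not hold without replicate 1 or 2 of DP Etv2-negative or replicate 1 of SP Etv2-negative (adjusted p = 0.0605, 0.0595 and 0.0504).

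In wildtype cells 5 of 10 Frizzled genes differed between the gates, and with induced Etv2 4 were higher and 3 lower. For all genes the shares called were 15.8% and 50.8%. Fzd10 was at 21.4, 31.1 and 20.6 CPM across wildtype DP and 76.9, 53.7 and 51.4 across wildtype SP libraries. In iEtv2 SP cells it was at 194, 275 and 223 CPM. Each group lay wholly above the one before, 2.49-fold higher in SP than DP (1.32 ± 0.20, adjusted p = 0.00136) and 3.8-fold higher in iEtv2 than in wildtype SP cells (1.93 ± 0.19, adjusted p = 1.57e-05). Fzd7 went the other way, at 473, 541 and 605 CPM across wildtype DP and 221, 279.7 and 294 across wildtype SP libraries. The iEtv2 SP libraries had 114, 111 and 105 CPM. It was 2.04-fold lower (-1.03 ± 0.12, adjusted p = 0.000227) and then 2.41-fold lower (-1.27 ± 0.12, adjusted p = 7.88e-06). Fzd4 was at 13.4, 15.9 and 9.29 CPM across wildtype DP and 30.3, 37.3 and 26.4 across wildtype SP libraries (1.28 ± 0.20, adjusted p = 0.00159) and was not called with induction. Fzd1 was at 23.4, 30.3 and 26.0 CPM across wildtype SP and 7.59, 13.0 and 10.6 across iEtv2 SP libraries, 2.55-fold lower (-1.35 ± 0.17, adjusted p = 7.97e-05), after a smaller difference between the gates (-0.74 ± 0.16, adjusted p = 0.0111). The receptors that were higher with induced Etv2 beside Fzd10 started from lower levels: Fzd5 was at 9.50, 11.3 and 6.83 CPM across wildtype SP and 19.0, 19.3 and 22.4 across iEtv2 SP libraries, Fzd6 at 6.83, 10.9 and 8.49 CPM across wildtype SP and 13.1, 17.7 and 21.8 across iEtv2 SP libraries and Fzd8 at 3.93, 6.35 and 3.69 CPM across wildtype SP and 10.1, 11.1 and 11.7 across iEtv2 SP libraries. Their changes were 1.13 ± 0.27, adjusted p = 0.00486, 1.00 ± 0.21, adjusted p = 0.00196 and 1.23 ± 0.20, adjusted p = 0.000417. Fzd2 was lower in iEtv2 cells (-0.75 ± 0.09, adjusted p = 4.42e-05) and slightly lower in wildtype SP than DP (-0.33 ± 0.09, adjusted p = 0.0258). The gate call was lost without replicate 1 of wildtype DP or replicate 1 or 2 of wildtype SP (adjusted p = 0.0715, 0.0724 and 0.0687).

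Lgr5, a receptor for R-spondins that marks stem cells in several adult tissues, was higher with the Etv2 reporter and in SP cells, and lower with induced Etv2. It was at 3.72, 3.77 and 5.15 CPM across DP Etv2-negative and 10.2, 9.52 and 11.8 across DP Etv2-positive libraries. In the SP pair it was at 9.54, 11 and 12.2 CPM across SP Etv2-negative and 27.5, 23.8 and 35.3 across SP Etv2-positive libraries. Lgr5 was 2.50-fold higher with the reporter in DP (1.32 ± 0.17, adjusted p = 0.000120), 2.65-fold higher in SP (1.40 ± 0.16, adjusted p = 8.02e-05). It was 2.58-fold higher in SP than in DP among negative cells (1.37 ± 0.17, adjusted p = 0.000528) and 2.74-fold higher among positive cells (1.45 ± 0.16, adjusted p = 0.000250). In the other set Lgr5 was at 9.07, 12.4 and 8.48 CPM across wildtype DP and 46.0, 51.8 and 41.5 across wildtype SP libraries. The iEtv2 SP libraries had 16.8, 24.7 and 17.4 CPM. It was 4.65-fold higher in wildtype SP than DP (2.22 ± 0.18, adjusted p = 3.55e-05), and iEtv2 cells lay between these groups (-1.24 ± 0.17, adjusted p = 0.000139, 2.37-fold lower than wildtype SP). Rspo3, the R-spondin needed for placental vessels, was at 56.5, 58.2 and 51.6 CPM across DP Etv2-negative and 54.6, 56.8 and 56.3 across DP Etv2-positive libraries. The SP values were 36.4, 49.2 and 44.0 CPM across SP Etv2-negative and 70.0, 87.0 and 108 across SP Etv2-positive libraries. The SP Etv2-positive libraries were the highest, 2.05-fold higher than SP Etv2-negative cells (1.03 ± 0.13, adjusted p = 0.000234) and above DP Etv2-positive cells (0.66 ± 0.13, adjusted p = 0.00704). Rspo3 was at 94.5, 78.7 and 91.9 CPM across wildtype SP and 13.8, 23.3 and 12.6 across iEtv2 SP libraries, 5.33-fold lower with induction (-2.41 ± 0.19, adjusted p = 3.11e-06).

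Lgr4, a broadly expressed R-spondin receptor, was higher with induced Etv2, at 82.2, 89.7 and 74.7 CPM across wildtype SP and 202, 180.3 and 198 across iEtv2 SP libraries (1.24 ± 0.10, adjusted p = 3.11e-06), and no other comparison called it except the wildtype gate without replicate 1 of wildtype DP (-0.34, adjusted p = 0.0265). Rspo4 was at 1.07, 1.94 and 2.39 CPM across wildtype DP and 0.589, 0.304 and 0.764 across wildtype SP libraries, lower in SP (-1.70 ± 0.38, adjusted p = 0.0125). Significance was lost without replicate 3 of wildtype DP (adjusted p = 0.0562). In the reporter line Rspo4 averaged 0.763 ± 0.357 and 0.311 ± 0.0760 CPM in the DP pair (-1.29 ± 0.43, adjusted p = 0.0371). It was no longer called without replicate 1 or 2 of DP Etv2-negative or replicate 1 or 2 or 3 of DP Etv2-positive (adjusted p = 0.0647, 0.203, 0.0624, 0.109 and 0.0727), and with DESeq2 (adjusted p = 0.0640). Lgr6 averaged 0.227 ± 0.0331 and 0.602 ± 0.186 CPM in wildtype and iEtv2 SP cells (1.40 ± 0.39, adjusted p = 0.0105), and its call was lost without replicate 3 of iEtv2 SP (adjusted p = 0.0636), and with DESeq2 (adjusted p = 0.0628). For Rspo3, 13.1% of the exon length is overlapped by an antisense gene, whose level was at most 0.04 CPM in any library.

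**Figure D3:**
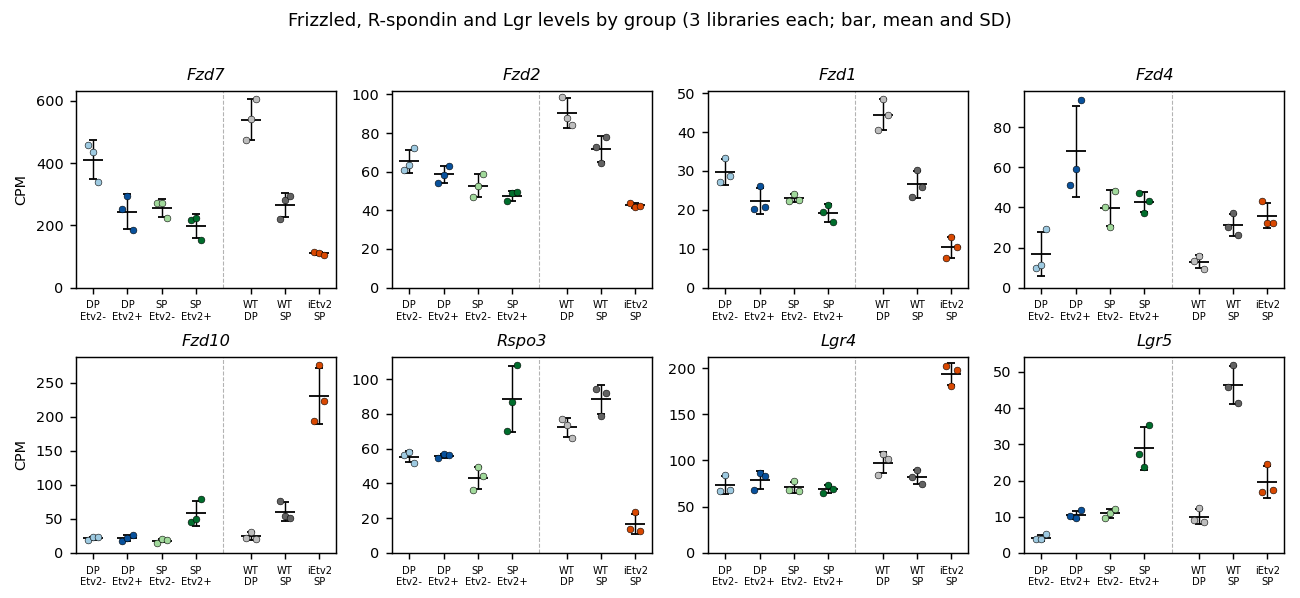
Level of 5 Frizzled receptors, Rspo3, Lgr4 and Lgr5 in CPM (vertical axes, linear from 0) in the 21 libraries, by group, with points for libraries, bars for the mean and SD of 3, and a dashed line between the sets counted apart. Fzd7 steps down and Fzd10 steps up from wildtype DP to wildtype SP to iEtv2 cells, and Lgr5 is lowest in the DP Etv2-negative and wildtype DP groups.

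Among the secreted antagonists, Sfrp1 (ENSMUSG00000031548, chr8:23411502-23449632, plus strand, mm10), a decoy with a Frizzled-like Wnt-binding domain, had the largest reporter changes. It was at 26.8, 35.5 and 39.5 CPM across DP Etv2-negative and 4.38, 7.46 and 5.39 across DP Etv2-positive libraries. SP cells had 11, 12.9 and 12.4 CPM across SP Etv2-negative and 2.65, 3.26 and 3.49 across SP Etv2-positive libraries. Every reporter-positive library was below every reporter-negative library of its gate. Sfrp1 was 5.93-fold lower with the reporter in DP (-2.57 ± 0.18, adjusted p = 1.78e-06) and 3.86-fold lower in SP cells (-1.95 ± 0.20, adjusted p = 3.99e-05), and 2.80-fold lower in SP than in DP among negative cells (-1.49 ± 0.17, adjusted p = 0.000288). Among positive cells the gate difference was -0.87 ± 0.21, adjusted p = 0.0156. That call was lost without replicate 1 of SP Etv2-positive (adjusted p = 0.0671). In wildtype cells Sfrp1 was at 62.9, 48.5 and 36.0 CPM across wildtype DP and 11.8, 19.9 and 9.98 across wildtype SP libraries, again lower in SP (-1.82 ± 0.26, adjusted p = 0.000945), and induction gave no call (-0.23 ± 0.26, adjusted p = 0.492).

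Dkk1, which blocks the Lrp co-receptors, was at 35.6, 30.8 and 44.1 CPM across wildtype SP and 11.7, 18.1 and 9.68 across iEtv2 SP libraries, and was 2.80-fold lower with induction (-1.49 ± 0.21, adjusted p = 0.000182). With the reporter in DP cells Dkk1 differed by -0.34 ± 0.22, adjusted p = 0.266, and was called with the replicate block (-0.37, adjusted p = 0.0177), and also with no filter on low counts (adjusted p = 0.000686). In SP cells it differed by -0.60 ± 0.22, adjusted p = 0.0599, and was called with the replicate block (-0.59, adjusted p = 0.00148), and also with no filter on low counts (adjusted p = 1.64e-10), with upper-quartile scaling (adjusted p = 0.0470) and without replicate 3 of SP Etv2-negative (adjusted p = 0.0323). Sfrp5 was at 0.392, 0.663 and 1.25 CPM across DP Etv2-negative and 1.77, 2.25 and 1.39 across DP Etv2-positive libraries, higher with the reporter (1.20 ± 0.36, adjusted p = 0.0226). This call ended without replicate 1 or 2 of DP Etv2-negative or replicate 2 of DP Etv2-positive (adjusted p = 0.0837, 0.0813 and 0.0786). In the other set Sfrp5 was at 1.41, 2.24 and 2.29 CPM across wildtype SP and 0.153, 0.305 and 0.237 across iEtv2 SP libraries, 8.39-fold lower with induction (-3.07 ± 0.43, adjusted p = 0.000166). Sfrp2 rose with induction, from 7.73, 11.2 and 10.9 CPM across the wildtype SP libraries to 24.0, 15.2 and 21.6 CPM across the iEtv2 SP libraries (1.03 ± 0.19, adjusted p = 0.00105), and averaged 11.4 ± 0.592 and 8.14 ± 1.31 CPM in the reporter DP pair (-0.49 ± 0.11, adjusted p = 0.00473). Dkk3, a divergent member of its family, was at 7.83, 8.65 and 13.6 CPM across DP Etv2-positive and 3.98, 3.97 and 4.32 across SP Etv2-positive libraries, lower in SP than in DP among positive cells (-1.30 ± 0.27, adjusted p = 0.00787). With the reporter in DP cells Dkk3 was higher (0.95 ± 0.26, adjusted p = 0.0143). The call did not hold without replicate 1 or 2 of DP Etv2-negative or replicate 3 of DP Etv2-positive (adjusted p = 0.0606, 0.0628 and 0.0752). Dkk2 averaged 0.201 ± 0.0403 and 0.622 ± 0.115 CPM in the DP pair (1.58 ± 0.31, adjusted p = 0.00177) and 0.510 ± 0.0656 CPM in SP Etv2-negative cells, above DP Etv2-negative (1.31 ± 0.31, adjusted p = 0.0184). The gate call was lost without replicate 1 or 2 of DP Etv2-negative or replicate 2 of SP Etv2-negative (adjusted p = 0.0908, 0.0696 and 0.0656), and without both libraries of high ribosomal RNA share (adjusted p = 0.0775).

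The target and feedback genes did not move as a block. With the reporter in DP cells 4 of 9 were lower and none higher, in SP cells 1 was lower, and between the gates none was called among positive cells, with 2 at an unadjusted p below 0.05 and none called by DESeq2. The shares of all genes called were 30.7%, 25.5% and, for that gate comparison, 13.9%. There Sp5 was called with the replicate block (-0.88, adjusted p = 0.00114), and also with no filter on low counts (adjusted p = 4.07e-18) and without replicate 3 of DP Etv2-positive (adjusted p = 0.0352), and Axin2 with the block as well (0.24, adjusted p = 0.0249). Sp5 (ENSMUSG00000075304, chr2:70474923-70477729, plus strand, mm10), a zinc-finger factor and direct target of beta-catenin, was at 91.3, 84.8 and 46.4 CPM across DP Etv2-negative and 26.1, 28.5 and 11.3 across DP Etv2-positive libraries. In the SP pair it was at 23.6, 29.5 and 18.5 CPM across SP Etv2-negative and 12.6, 15.8 and 6.92 across SP Etv2-positive libraries. The DP Etv2-negative libraries were above all others. Sp5 was 3.39-fold lower with the reporter in DP (-1.76 ± 0.35, adjusted p = 0.00207) and 3.11-fold lower in SP than in DP among negative cells (-1.64 ± 0.35, adjusted p = 0.0102). In SP cells its reporter difference was -1.02 ± 0.37, adjusted p = 0.0568, not a call. It was called with the replicate block (-1.06, adjusted p = 0.000116), and also with no filter on low counts (adjusted p = 1.17e-24), in a fit of the compared groups alone (adjusted p = 0.0229), with upper-quartile scaling (adjusted p = 0.0499) and without replicate 2 of SP Etv2-positive (adjusted p = 0.0490). Nkd2, which binds Dishevelled, was at 10.1, 13.6 and 8.28 CPM across DP Etv2-negative and 5.77, 5.32 and 3.75 across DP Etv2-positive libraries (-1.12 ± 0.21, adjusted p = 0.00145). It was also lower in SP Etv2-negative than in DP Etv2-negative cells (-0.83 ± 0.21, adjusted p = 0.0216). Significance was lost without replicate 1 or 2 of DP Etv2-negative or replicate 1 or 3 of SP Etv2-negative (adjusted p = 0.0543, 0.112, 0.0785 and 0.0744). Rnf43 was at 1.65, 2.24 and 1.98 CPM across SP Etv2-negative and 0.774, 0.668 and 0.651 across SP Etv2-positive libraries, 2.80-fold lower with the reporter (-1.49 ± 0.23, adjusted p = 0.000617). In DP cells the Rnf43 change was -0.84 ± 0.22, adjusted p = 0.0117. It was no longer called without replicate 3 of DP Etv2-negative (adjusted p = 0.0587).

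Lef1, the factor that partners beta-catenin in mesoderm, averaged 106 ± 10.6 and 62.1 ± 6.57 CPM in the DP pair (-0.77 ± 0.13, adjusted p = 0.000703) and 62.7 ± 8.84 CPM in SP Etv2-negative cells (-0.75 ± 0.13, adjusted p = 0.00309 against DP Etv2-negative). Nkd1 went up where Nkd2 went down. It averaged 116 ± 11.4 and 150.2 ± 14.4 CPM in DP and SP Etv2-negative cells (0.37 ± 0.11, adjusted p = 0.0475). That call was lost without replicate 1 or 2 of DP Etv2-negative or replicate 1 or 2 or 3 of SP Etv2-negative (adjusted p = 0.117, 0.182, 0.175, 0.0723 and 0.0632), and without both libraries of high ribosomal RNA share (adjusted p = 0.0503). Its reporter difference in DP cells was 0.26 ± 0.11, adjusted p = 0.0947, and was called with the replicate block (0.25, adjusted p = 0.0236), and also with no filter on low counts (adjusted p = 0.00656). The Notum difference in SP cells was -0.63 ± 0.23, adjusted p = 0.0638, and was called with the replicate block (-0.64, adjusted p = 0.0286), and also with DESeq2 (adjusted p = 0.0380), with no filter on low counts (adjusted p = 0.00134), in a fit of the compared groups alone (adjusted p = 0.0191) and without replicate 1 of SP Etv2-positive (adjusted p = 0.0458). Axin2, Tcf7 and Znrf3 were called in none of these 4 comparisons, but the gate difference of Axin2 among positive cells (0.25 ± 0.10, adjusted p = 0.126) was called with the replicate block (0.24, adjusted p = 0.0249), and also with no filter on low counts (adjusted p = 0.0212), without replicate 3 of SP Etv2-positive (adjusted p = 0.0407) and without both libraries of high ribosomal RNA share (adjusted p = 0.0449). Axin2 averaged 81.3 ± 4.23 and 75.7 ± 6.86 CPM in the DP pair and 89.6 ± 9.16 and 89.9 ± 12.4 CPM in the SP pair (-0.10 ± 0.10, adjusted p = 0.493 and 0.00 ± 0.10, adjusted p = 0.981), and Tcf7 averaged 141 ± 5.08 and 141 ± 8.78 CPM in the DP pair and 147 ± 11.9 and 139 ± 14.7 CPM in the SP pair.

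In wildtype cells Sp5 was at 95.1, 104 and 125 CPM across wildtype DP and 29.5, 37.4 and 44.0 across wildtype SP libraries. The iEtv2 SP libraries had 6.29, 23.6 and 16.9 CPM. It was 2.93-fold lower in SP than DP (-1.55 ± 0.33, adjusted p = 0.00935) and lower again with induction (-1.25 ± 0.34, adjusted p = 0.0105), with no overlap between neighbouring groups. Nkd2 was at 16.8, 18.4 and 18.7 CPM across wildtype DP and 6.95, 9.17 and 8.91 across wildtype SP libraries (-1.10 ± 0.12, adjusted p = 0.000233), and Lef1 was at 57.8, 57.1 and 64.6 CPM across wildtype SP and 10.7, 16.7 and 15.0 across iEtv2 SP libraries. Lef1 was lower in wildtype SP than DP (-0.97 ± 0.13, adjusted p = 0.000611) and 4.23-fold lower with induction (-2.08 ± 0.14, adjusted p = 8.40e-07). Nkd1 was higher in wildtype SP than DP (0.51 ± 0.12, adjusted p = 0.0155), a call lost without replicate 3 of wildtype SP (adjusted p = 0.0642), and then 4.57-fold lower with induction, at 102, 99.2 and 119 CPM across wildtype SP and 19.1, 28.0 and 23.1 across iEtv2 SP libraries (-2.19 ± 0.13, adjusted p = 3.47e-07). Notum, a secreted enzyme that strips the lipid from Wnts, was at 3.10, 2.62 and 2.38 CPM across wildtype SP and 0.268, 0.572 and 0.305 across iEtv2 SP libraries (-2.82 ± 0.33, adjusted p = 4.16e-05). Induction called 7 of the 9 genes lower, against 24.4% of all genes. Axin2 averaged 103 ± 8.55 and 71.9 ± 6.34 CPM in wildtype and iEtv2 SP cells (-0.51 ± 0.11, adjusted p = 0.00240). Tcf7 averaged 151 ± 6.02 and 97.8 ± 7.14 CPM (-0.63 ± 0.07, adjusted p = 3.10e-05) and Nkd2 8.34 ± 1.22 and 5.75 ± 0.178 CPM (-0.54 ± 0.13, adjusted p = 0.00511). The Axin2 change was the smallest in size of the 8 called, and that was not tested. Znrf3 was called in no comparison, and its level lay between 19.9 and 35.7 CPM over the 21 libraries. Rnf43 was higher, at means of 1.23 ± 0.188 and 2.25 ± 0.380 CPM (0.87 ± 0.26, adjusted p = 0.0158). This call ended without replicate 1 or 3 of wildtype SP or replicate 3 of iEtv2 SP (adjusted p = 0.0560, 0.0517 and 0.0649). Antisense genes overlap 38.1% of the exon length of Notum, 17.8% of Fzd5, 16.1% of Sfrp2 and 13.7% of Lef1, and the strand setting of the counting is not given in the sources used here, so reads of each pair cannot be told apart. Notumos, on the strand opposite Notum, was at 0.314 to 0.509 CPM in wildtype SP and 0 to 0.0677 CPM in iEtv2 cells.

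**Figure D4:**
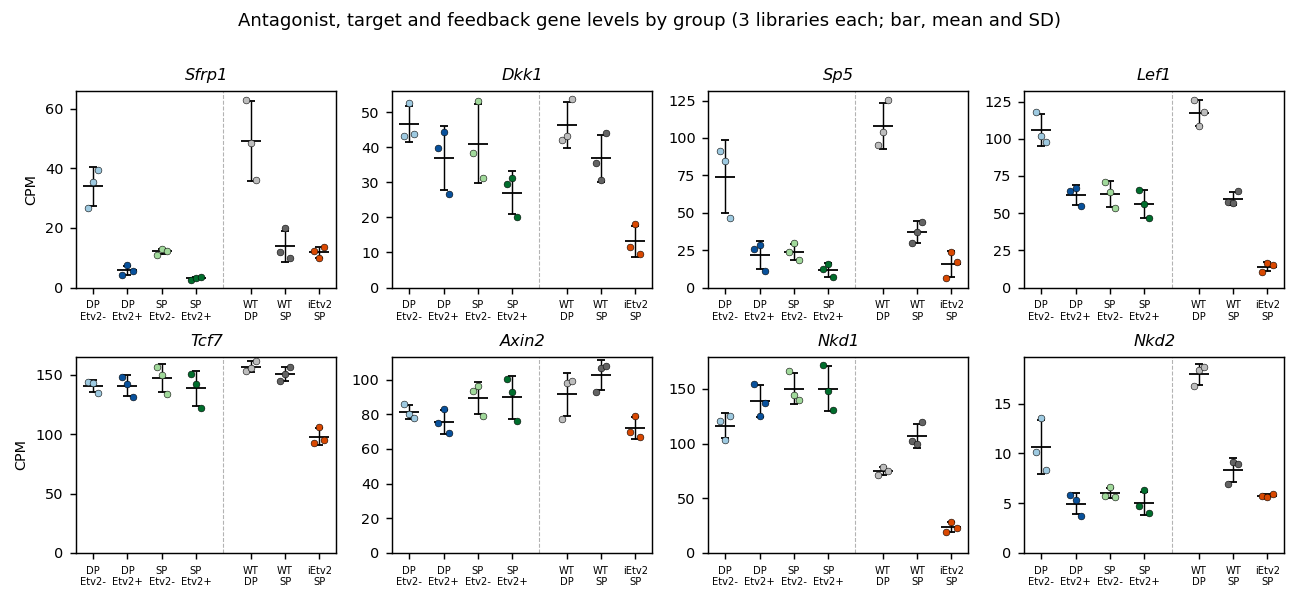
Level of the antagonists Sfrp1 and Dkk1 and of 6 target and feedback genes in CPM (vertical axes, linear from 0) in the 21 libraries, by group, with points for libraries, bars for the mean and SD of 3, and a dashed line between the sets counted apart. Sfrp1 and Sp5 are highest in the DP Etv2-negative and wildtype DP groups, whereas the Axin2 groups of the reporter line lie close together. The iEtv2 libraries of Axin2 lie below the wildtype SP ones.

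Promoter sequence was looked up because beta-catenin acts at TCF/LEF sites and Etv2 at ETS sites. The RefSeq promoter table (GRCm38.p6, the build of mm10) matched 36 of the 53 members with 44 promoters. The TCF/LEF core, CTTTGAA or CTTTGAT on either strand, was present in the 250 bases before the start of 4 of 44 member promoters (9.09%) and of 7.48% of all 32851 promoters. The ETS core, CGGAAGT on either strand, was present in 1 of 44 (2.27%) and in 4.92% of all. The genes with the TCF/LEF letters were Sp5, Wnt11, Wnt5b and Dkk1, and all 4 were lower in iEtv2 than in wildtype SP cells. In that comparison 23 of the 44 members tested and 24.4% of all genes were called lower. Wnt11 and Wnt5b also have promoters without these letters. Such a match describes the letters only. The windows of Sp5, Wnt11 and Wnt5b follow, 5′ to 3′ on the gene's strand with the core in capitals, at chr2:70474673-70474922 (plus strand, core 104 bases before the start), chr7:98834862-98835111 (plus strand, core 51 bases before the start, read on the other strand) and chr6:119449387-119449636 (minus strand, core 71 bases before the start).
Sp5: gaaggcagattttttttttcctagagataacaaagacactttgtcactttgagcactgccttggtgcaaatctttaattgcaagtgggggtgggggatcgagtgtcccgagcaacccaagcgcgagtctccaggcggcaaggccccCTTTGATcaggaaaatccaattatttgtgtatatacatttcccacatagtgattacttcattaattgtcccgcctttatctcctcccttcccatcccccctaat
Wnt11: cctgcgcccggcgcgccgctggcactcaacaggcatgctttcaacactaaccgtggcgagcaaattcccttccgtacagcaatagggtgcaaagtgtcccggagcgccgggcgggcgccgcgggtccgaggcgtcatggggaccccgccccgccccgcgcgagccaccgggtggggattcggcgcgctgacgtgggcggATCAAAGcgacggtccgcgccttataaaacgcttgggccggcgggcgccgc
Wnt5b: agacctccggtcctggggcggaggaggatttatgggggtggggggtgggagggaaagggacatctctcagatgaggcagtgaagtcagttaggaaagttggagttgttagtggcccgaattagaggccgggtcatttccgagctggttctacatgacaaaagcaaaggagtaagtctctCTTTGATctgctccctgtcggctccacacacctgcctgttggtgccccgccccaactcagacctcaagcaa

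The reporter's effect differed between the gates for 6 of 43 members tested, 3 of them higher and 3 lower in SP than in DP, against 3.97% of all genes (1.52% higher, 2.45% lower). With the replicate block 15 members were called, 9 higher and 6 lower, and 1537 of all genes, against 702 without it. The block added Lef1 (0.61, adjusted p = 0.00291), Wnt3 (0.61, adjusted p = 0.00544), Dkk3 (-1.30, adjusted p = 0.00563), Wnt6 (-1.58, adjusted p = 0.00608), Nkd2 (0.82, adjusted p = 0.0177), Notum (-1.16, adjusted p = 0.0252), Wnt2 (0.72, adjusted p = 0.0284), Sp5 (0.73, adjusted p = 0.0288) and Fzd7 (0.38, adjusted p = 0.0347). Without the block, the difference of the log2 changes (SP minus DP) was 1.67 ± 0.29, adjusted p = 0.0144 for Fzd10, 1.02 ± 0.19, adjusted p = 0.0194 for Rspo3 and 2.16 ± 0.51, adjusted p = 0.0371 for Wnt2b, and -1.91 ± 0.48, adjusted p = 0.0456 for Fzd4, -1.41 ± 0.33, adjusted p = 0.0352 for Wnt4 and -1.91 ± 0.42, adjusted p = 0.0304 for Dkk2. Fzd10 and Rspo3 were called higher with the reporter in SP and not called in DP cells (0.01 ± 0.13, adjusted p = 0.960 for Rspo3). Wnt2b was called lower in DP and not called in SP cells (0.11 ± 0.38, adjusted p = 0.866). Fzd4, Wnt4 and Dkk2 were called higher in DP and not called in SP cells. The Fzd10 call was lost without replicate 2 of DP Etv2-negative (adjusted p = 0.0546), and the Rspo3 call without replicate 1 or 2 of DP Etv2-negative (adjusted p = 0.0526 and 0.0646). With 1 library left out, the Wnt2b call held only without DP Etv2-negative replicate 3 or DP Etv2-positive replicate 2, the Fzd4 call only without DP Etv2-negative replicate 3 or DP Etv2-positive replicate 1, and with any other library left out their adjusted p lay at 0.0522 to 0.1 and 0.0538 to 0.129. Without both libraries of high ribosomal RNA share it was 0.0640 and 0.0893. The Wnt4 call was lost without replicate 1 or 2 of DP Etv2-negative or replicate 1 or 3 of DP Etv2-positive or replicate 1 or 2 of SP Etv2-negative or replicate 2 or 3 of SP Etv2-positive (adjusted p = 0.0942, 0.101, 0.0562, 0.0525, 0.0801, 0.0598, 0.0623 and 0.0508), and without both libraries of high ribosomal RNA share (adjusted p = 0.0748). The Dkk2 call was lost without replicate 1 or 2 of DP Etv2-negative or replicate 3 of DP Etv2-positive or replicate 1 or 2 or 3 of SP Etv2-negative or replicate 2 or 3 of SP Etv2-positive (adjusted p = 0.0900, 0.0871, 0.0525, 0.0623, 0.0615, 0.0652, 0.0662 and 0.0575), and without both libraries of high ribosomal RNA share (adjusted p = 0.0959).

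Beyond the members, genes for Wnt secretion and co-receptors (17 listed) shifted in part. In DP cells 5 were higher and 7 lower of 16 tested with the reporter, and in SP cells 2 and 7. Of all genes tested, 30.7% were called with the reporter in DP cells, 25.5% in SP cells and 50.8% with induced Etv2. These shares stand beside the counts of every list below. Ror1 and Ror2, receptors for Wnt5a, fell in DP cells from 13.2 to 3.72 CPM (-1.83 ± 0.16, adjusted p = 6.41e-06) and from 28.5 to 11.1 CPM (-1.36 ± 0.11, adjusted p = 5.11e-06), while Adgra2, a co-activator of Wnt7 signals in brain vessels, rose from 39.8 to 167 CPM (2.07 ± 0.36, adjusted p = 0.000878). Between the wildtype gates Ror1 was lower in SP (-1.52 ± 0.20, adjusted p = 0.000551) and Adgra2 higher (1.92 ± 0.17, adjusted p = 5.11e-05). With induced Etv2, 4 were higher and 8 lower of 17. Wls, the carrier that Wnts need for secretion, fell from 296 to 111 CPM (-1.42 ± 0.09, adjusted p = 5.54e-07) and the glypican Gpc3 from 1032 to 133 CPM (-2.96 ± 0.13, adjusted p = 8.08e-08), while Porcn, the enzyme that adds the lipid to Wnts, rose from 4.55 to 12.1 CPM (1.41 ± 0.16, adjusted p = 3.69e-05).

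Of 16 further antagonists, 7 were higher and 5 lower of 14 tested with the reporter in DP cells, and 2 and 5 in SP cells. Frzb, a secreted Frizzled-related decoy, fell from 69.2 to 8.41 CPM in DP (-3.05 ± 0.35, adjusted p = 4.86e-05) and from 15.7 to 3.62 CPM in SP cells (-2.12 ± 0.39, adjusted p = 0.00206), and it was lower in wildtype SP than DP cells (-1.89 ± 0.45, adjusted p = 0.0153) and with induction (-3.13 ± 0.53, adjusted p = 0.000550). Sost, a secreted Lrp blocker known from bone, was higher in iEtv2 cells at a mean of 10.8 CPM (3.56 ± 0.22, adjusted p = 4.78e-07). Among 13 mesodermal genes known to respond to Wnt, 8 were lower and 4 higher with the reporter in DP, 6 lower and 3 higher in SP, and 9 lower and none higher with induction. Mesp1, a factor of nascent mesoderm, fell from 203 to 35.1 CPM in DP (-2.54 ± 0.27, adjusted p = 2.60e-05), from 73.2 to 11.9 CPM in SP (-2.62 ± 0.29, adjusted p = 6.62e-05) and from 57.9 to 3.21 CPM with induction (-4.18 ± 0.54, adjusted p = 9.25e-05). Tbx6, a paraxial mesoderm factor, fell from 13.7 to 2.02 CPM in DP (-2.77 ± 0.27, adjusted p = 1.36e-05), and it stands in the paraxial marker list too.

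Of 26 intracellular components listed, 5 were higher and 9 lower of 25 tested with the reporter in DP cells, 3 and 4 in SP cells, and 7 and 9 of 26 with induction. Their named changes in the reporter line were mostly within 2-fold: Dvl1, a Dishevelled, rose from 26.6 to 48.9 CPM in DP (0.88 ± 0.08, adjusted p = 6.09e-06), and Tcf7l1, a TCF that mainly represses, was lower in SP than DP among negative cells (-0.75 ± 0.08, adjusted p = 0.000186) and in wildtype cells (-0.82 ± 0.07, adjusted p = 5.93e-05). With induction the co-repressor Tle3 fell from 326 to 119 CPM (-1.46 ± 0.10, adjusted p = 7.79e-07). Of 11 planar polarity genes, 5 were higher and 2 lower with the reporter in DP cells, 2 and 1 in SP cells, and 2 and 2 with induction. In SP cells the intracellular and polarity calls were thus near the 25.5% of all genes called. With induction the polarity calls were below the 50.8% of all genes. Daam1 rose with the reporter in DP cells from 62.0 to 146 CPM (1.24 ± 0.16, adjusted p = 0.000117), and Daam2, its paralog, fell from 50.8 to 2.96 CPM with induction (-4.10 ± 0.27, adjusted p = 8.06e-07).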

How the data were processed

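Libraries were made with the TruSeq Stranded Total RNA kit from RNA extracted with the RNeasy kit, per the labels' protocols. Tables of whole-number counts for each Ensembl gene were deposited, and the submitters' processing notes name featureCounts and mm10. The aligner, annotation, strand setting and versions are not given in the sources used here, and the 9 wildtype and iEtv2 tables hold 4 summary entries that featureCounts does not write, which were left out (each 3.95% to 8.75% of a table's total). Gene names, positions and exon lengths came from GENCODE M21 (GRCm38), which named 55141 of 55487 identifiers.

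The 12 reporter libraries and the 9 wildtype and iEtv2 libraries were fitted as 2 sets with edgeR 4.0.16 in R 4.3.3 (filterByExpr, TMM, quasi-likelihood F test, Benjamini-Hochberg adjustment over all genes tested, threshold 0.05), with all groups of a set in 1 model. CPM values are TMM-scaled, SD is over 3 libraries, and the standard error is the absolute log2 change over the square root of F. The fit was tested on simulated data. Depth limits precision as 3 counts are 0.0915 to 0.134 CPM, and such limits cover counting error only. No 2 libraries held identical values. In the reporter comparisons within a gate, deviations of same-numbered libraries correlated at 0.175 to 0.342 in DP and 0.143 to 0.268 in SP cells, so the numbers pair those samples, as a pattern of the data. Where the replicate block changed a call there, its value is printed.

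Members called with at least a 2-fold change and a group mean of at least 1 CPM are given in every library, other called members by group means, and at most 4 called genes for each other list and comparison. The members and lists were chosen with earlier results of these data known. Alternatives were size factors (DESeq2 1.42.0 and its normalisation in edgeR), upper-quartile scaling, other filters, the block, the compared groups alone, leaving out the libraries of high ribosomal RNA share, and each library left out.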

Additional observations from a re-analysis of the deposited data

Results flagged for a closer look

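The effect of the Etv2 reporter differed between SP and DP cells for 6 members, by edgeR's quasi-likelihood test of the difference itself, and for 15 with the replicate block. Of all genes, 702 were called without the block and 1537 with it. The difference (SP minus DP, log2) was 1.67 ± 0.29, adjusted p = 0.0144 for Fzd10 and 1.02 ± 0.19, adjusted p = 0.0194 for Rspo3. It was 2.16 ± 0.51, adjusted p = 0.0371 for Wnt2b, -1.41 ± 0.33, adjusted p = 0.0352 for Wnt4, -1.91 ± 0.48, adjusted p = 0.0456 for Fzd4 and -1.91 ± 0.42, adjusted p = 0.0304 for Dkk2. For Dkk2 every library was below 1 CPM. Each of the 6 calls was lost when at least 1 library was left out: the Fzd10 call without replicate 2 of DP Etv2-negative (adjusted p = 0.0546), and the Rspo3 call without replicate 1 or 2 of DP Etv2-negative (adjusted p = 0.0526 and 0.0646), while the others were lost in 9 to 11 of the alternatives run.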

How the results depend on the processing

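No called change of a member reversed its direction under any alternative. Of the members called, 15 of 23 kept their call under every alternative for the reporter in DP cells, 7 of 12 in SP cells, 7 of 16 and 4 of 7 for the gate in reporter-negative and reporter-positive cells, 12 of 16 for the gate in wildtype cells, 29 of 31 with induced Etv2 and 0 of 6 for the difference of reporter effects.

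With no filter on low counts, the members called were 20 for the reporter in SP cells, 17 for the gate in reporter-positive cells, 25 for the gate in wildtype cells and 16 for the difference of reporter effects. All genes called numbered 4738, 3128, 3138 and 1740 in that order. With the replicate block the members called were 19 for the reporter in SP cells, 15 for the gate in reporter-positive cells and 15 for the difference. All genes called numbered 5445, 3370 and 1537. DESeq2 called 1237 of all genes for the difference. A fit of the compared groups alone called 1324 of all genes for the gate in reporter-positive cells. Without the 2 libraries of high ribosomal RNA share, 7 members and 2459 genes were called for the reporter in SP cells, 1106 genes for the gate in reporter-positive cells, and 2 members and 119 genes for the difference. The fit without them has fewer samples; beyond that, the cause was not tested.

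With each library left out in turn, the genes called ranged from 4022 to 5062 for the reporter in DP, 3232 to 3608 in SP, 787 to 2268 and 1342 to 2403 for the gate in reporter-negative and reporter-positive cells, 1509 to 2683 for the gate in wildtype cells, 6834 to 8058 with induced Etv2 and 50 to 1268 for the difference of reporter effects. The members called ranged from 17 to 23, 8 to 13, 7 to 17, 4 to 6, 14 to 17, 29 to 33 and 0 to 8 in the same order. For the gate in reporter-negative cells, 8 members were called without DP Etv2-negative replicate 1, 7 without its replicate 2 and 9 without SP Etv2-negative replicate 1. For the gate in reporter-positive cells, 4 were called without SP Etv2-positive replicate 1. For the difference, 1 and 0 were called without DP Etv2-negative replicates 1 and 2.

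Pairing was taken to hold where all same-numbered libraries correlated above 0.1. The gate comparisons and the iEtv2 comparison missed that limit. Between the gates, same-numbered libraries still correlated more than others: 0.0962 to 0.334 against at most 0.0502 in reporter-negative cells. The values were 0.0767 to 0.269 against 0.0662 in reporter-positive and 0.0916 to 0.342 against 0.0879 in wildtype cells. Between wildtype and iEtv2 cells they were -0.0763 to 0.166 against 0.208. For the gate in reporter-negative cells the block adds 6 members, Fzd1, Fzd6, Notum, Rspo3, Wnt2 and Wnt6, with 2788 of all genes called against 1936. DESeq2 called Fzd1, Fzd6, Notum and Wnt6 there. Between the wildtype gates the block added Fzd8, Notum, Wnt3a, Wnt6 and Wnt9a, with 3242 of all genes called against 2580. DESeq2 called Notum and Wnt6 there. Depth limits members below 1 CPM, such as Wnt3a, Wnt16 and Dkk2 in the reporter line.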

Other observations

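Replicate 3 of the reporter line was the lowest of its group in all 4 groups for 13 of the 43 members tested (30.2%), namely Axin2, Fzd7, Lef1, Nkd2, Sp5, Tcf7, Wnt11, Wnt2b, Wnt3, Wnt3a, Wnt5a, Wnt5b and Wnt6, and for 4.82% of all 17690 genes tested. Replicate 1 was the lowest in all 4 groups for 5 members (Fzd10, Fzd2, Fzd8, Sfrp1 and Wnt2) and for 2.17% of all genes. Replicate 2 was the lowest for no member (2.50% of all genes) and the highest for 6 (2.87% of all genes). In the wildtype and iEtv2 set, replicate 1 was the lowest in all 3 groups for 9 of 44 members (20.5%), including Sp5, Tcf7, Wnt3, Wnt5a and Wnt5b, and for 8.60% of all genes. What the libraries of a number share is not given in the labels, and no test was run on these counts.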
